A study of Mus musculus with 6 samples.

Results

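The E2F transcription factors and their DP partners were followed by bulk RNA-Seq of hepatocytes taken from mouse liver. The family was taken as 10 genes, E2f1 to E2f8 and the partner genes Tfdp1 and Tfdp2, matched by gene name and versioned identifier in the GENCODE M21 annotation, out of 55450 genes in each count file. All 10 had enough counts to be tested. The 6 libraries came from male C57BL/6 mice on a normal diet. At 0 h the liver was undamaged (3 libraries), and the other 3 libraries were made 48 h after partial hepatectomy (PHx), in which surgeons take out most of the liver. Hepatocytes were isolated by collagenase perfusion of the liver in 2 steps, RNA was extracted with TRIzol, and the study's methods describe the libraries of a time point as separate hepatocyte preparations. The mice were 10 to 12 weeks old by the labels. The methods text gives a slightly younger age at surgery. The mice carried no transgene or deletion that the labels name, and the 0 h mice were undamaged rather than sham operated, so the effects of surgery and of tissue loss cannot be told apart. Each library averages all hepatocytes of a preparation, cycling and resting.

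E2F proteins bind the promoters of genes that a cell needs to enter S phase. E2f1, E2f2 and E2f3 are the activators, E2f4, E2f5 and E2f6 are the canonical repressors, and E2f7 and E2f8 are the atypical repressors, which bind DNA without a DP partner. E2f1 to E2f6 bind DNA as dimers with a DP protein, and E2f1 to E2f5 are held in check by the pocket proteins of the retinoblastoma family until cyclin-dependent kinases phosphorylate these. In liver, E2f7 and E2f8 are best known for their part in making hepatocytes polyploid, a process that E2f1 opposes. E2f1, E2f2, E2f3, E2f7, E2f8 and the pocket protein gene Rbl1 are themselves known targets of E2F.

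Promoter windows from RefSeq (GRCm38.p6), which run from 250 bases before a transcript start to 50 bases after it, were at hand for 8 of the 10 genes, E2f4 and E2f5 being the others. They were searched on both strands for 4 words of the E2F consensus, TTTCCCGC, TTTCGCGC, TTTGCCGC and TTTGGCGC, and for TTTGAA, the core of the CHR element that MuvB complexes bind. No word contains another, and all of them begin with TTT. An E2F word was found for E2f2, E2f3, E2f7 and Tfdp1, and it occurs in 2.26% of all 32851 windows. A CHR word was found for E2f3 and E2f8, and in a second window of E2f2, built on a RefSeq start 8388 bases into the gene, and it occurs in 17.9% of all windows. The windows of E2f6 and Tfdp2 held neither, and those of Tfdp2 are built on RefSeq starts 62430 and 62973 bases inside the gene. The window of E2f1 is built on a RefSeq start 466 bases inside the annotated gene, so it does not cover the gene's first start site, and it held neither word. The 4 stretches below are shown because they hold these words in front of the annotated gene start. Capitals mark the words, and in GCGGGAAA, GCGCGAAA and TTCAAA the word lies on the other strand.
E2f3 (chr13:29986064-29986183, minus strand, bases 120 to 1 before the start): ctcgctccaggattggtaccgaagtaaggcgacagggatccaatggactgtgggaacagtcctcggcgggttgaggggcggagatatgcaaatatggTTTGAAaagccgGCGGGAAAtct
E2f7 (chr10:110745189-110745308, plus strand, bases 250 to 131 before the start): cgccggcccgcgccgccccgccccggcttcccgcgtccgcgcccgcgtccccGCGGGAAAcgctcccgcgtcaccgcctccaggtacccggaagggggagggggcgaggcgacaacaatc
E2f8 (chr7:48881597-48881716, minus strand, bases 120 to 1 before the start): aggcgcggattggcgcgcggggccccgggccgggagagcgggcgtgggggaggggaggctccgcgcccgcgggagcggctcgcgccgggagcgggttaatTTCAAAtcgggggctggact
Tfdp1 (chr8:13338631-13338750, plus strand, bases 120 to 1 before the start): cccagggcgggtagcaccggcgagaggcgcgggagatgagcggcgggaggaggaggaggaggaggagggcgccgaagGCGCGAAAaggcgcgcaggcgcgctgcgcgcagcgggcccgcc

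The word of E2f2 begins at base 40, counted from the start used by RefSeq, which is itself 120 bases upstream of the gene start of GENCODE. It is shown in this short stretch, at chr4:136172302-136172323 on the plus strand: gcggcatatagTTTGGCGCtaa. Such matches are descriptions of the letters in these windows and were not tested for binding.

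Gene counts summed to between 31419443 and 36346220 per library, and a floor of 3 counts was worth 0.0825 to 0.0955 CPM (counts scaled to the library total) before TMM scaling. Levels below are CPM with edgeR's TMM factors, which correct each total for differences in composition. The hepatocyte label was checked against 11 markers such as Alb and Hnf4a, which summed to 114124 to 132635 CPM at 0 h and 79381 to 99711 CPM at 48 h. By the edgeR test used throughout, 5 of these were lower at 48 h (Alb, Ttr, Apoa1, Apoa2 and Cebpa) and 1 was higher (Fga). The 10 Kupffer cell markers summed to 78.3 to 118 CPM at 0 h and 112 to 137 CPM at 48 h, with 2 genes higher and none lower. The 8 endothelial markers summed to 213 to 344 CPM at 0 h and 155 to 168 CPM at 48 h, and all 8 were lower. The 7 stellate cell markers summed to 71.7 to 115 CPM and 62.9 to 75.8 CPM, with 1 higher and 1 lower. The 6 cholangiocyte markers summed to 9.15 to 20.7 CPM and 16.3 to 26 CPM, with 1 higher, and the defining markers Krt19, Krt7, Epcam and Cftr had 0 to 4 counts in each library. The 6 lymphocyte markers summed to 0.181 to 0.272 CPM at 0 h and 0.0891 to 0.336 CPM at 48 h, with Cd3d at 0. The 8 neutrophil markers summed to 0.0903 to 0.408 CPM at 0 h and 0.653 to 1.06 CPM at 48 h, so the time points were apart, with Mpo and Ltf at 0. Of these markers, only Elane and Camp were higher in every 48 h library than in any 0 h library. S100a8, S100a9, Ly6g and Ngp had 0 to 3 counts in each library. No lymphocyte or neutrophil marker had enough counts to be tested. Between the time points, the sums of the hepatocyte, endothelial and neutrophil markers were apart. Those of the Kupffer cell, stellate cell, cholangiocyte and lymphocyte markers overlapped. As a background for the calls above, the same test gave shares of 21.4% (higher) and 19.3% (lower) over its whole gene set. The part of any of these markers in the results below was not tested.

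Of the 10 genes, 9 rose at 48 h after PHx and none fell. The test was the quasi-likelihood test of edgeR on 3 libraries against 3, Benjamini-Hochberg adjusted over all genes, with a threshold of 0.05. Of all 17037 genes tested, 21.4% were higher and 19.3% were lower under the same rule. The 9 were all 3 activators, all 3 canonical repressors, both atypical repressors and Tfdp1, while Tfdp2 stayed between 20.3 and 25.8 CPM in the 6 libraries. In bulk samples, more cells that express a gene and more RNA per cell cannot be told apart. The median log2 fold change was 2.97 over the 3 activators (0.98 to 3.67) and 0.54 over the 3 canonical repressors (0.41 to 0.64). All genes tested had a median of 0.00. The 2 atypical repressors differed, with E2f7 at 3.57 and E2f8 at 1.88, and 2.73 is only the midpoint between them.

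**Figure D1:**
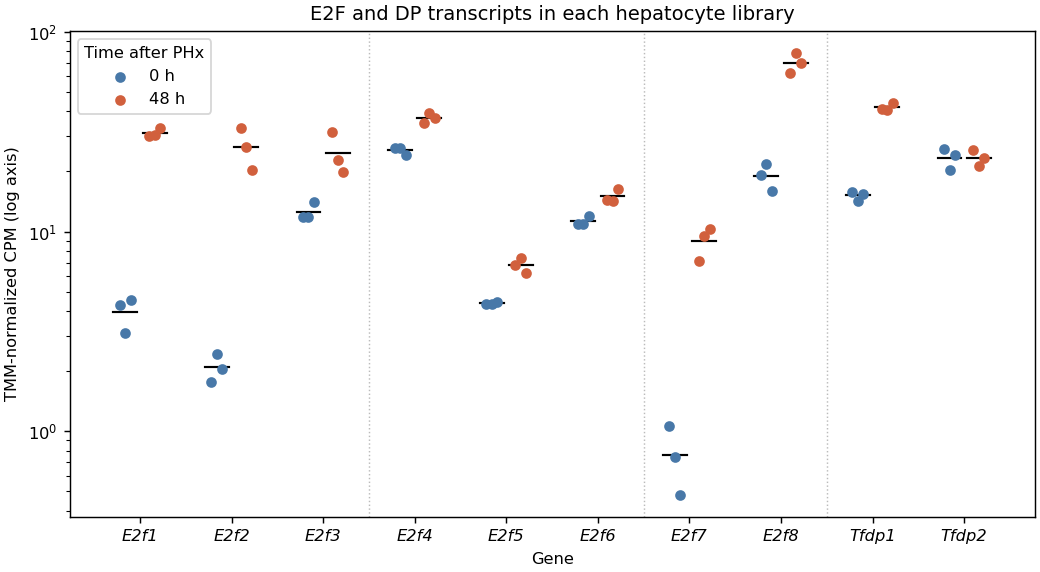
Each point is the TMM-scaled CPM of a gene in a library (log axis), blue for 0 h and orange for 48 h after PHx, with 3 libraries per time point. Black bars are means, and dotted lines separate activators, canonical repressors, atypical repressors and DP partners. The points of the 2 time points are apart for every gene but Tfdp2. How many of all genes tested are apart in this way was not counted.

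Among the activators, E2f1 and E2f2 rose from low levels in undamaged liver, and E2f3 was already well expressed there. E2f1 (ENSMUSG00000027490.17; chromosome 2, 154559407 to 154569892, GRCm38), the founding member of the family, stood at 4.29, 3.09 and 4.55 CPM in the 0 h libraries and at 30, 30.4 and 33.0 CPM in the 48 h libraries. The time points were far apart, and the 48 h libraries were close to each other. The mean rose 7.82-fold, from 3.98 ± 0.776 to 31.1 ± 1.62 CPM (SD, n = 3), a log2 fold change of 2.97 (SE 0.154, with an edgeR adjusted p of 2.87e-07).

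E2f2 (ENSMUSG00000018983.9; chromosome 4, 136172394 to 136196057) stood at 1.77, 2.45 and 2.05 CPM at 0 h and at 32.9, 26.5 and 20.4 CPM at 48 h. The means differed 12.7-fold, and the 48 h libraries spread more widely than those of E2f1. Its log2 fold change was 3.67 (SE 0.207, with an edgeR adjusted p of 5.04e-07).

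E2f3 (ENSMUSG00000016477.18; chromosome 13, 29906575 to 29986063) stood at 11.8, 11.9 and 14.0 CPM at 0 h and at 31.7, 22.8 and 19.8 CPM at 48 h. The time points did not overlap, and replicate 1 at 48 h was the highest, as it was for E2f2. The means differed 1.97-fold (log2 fold change 0.98, standard error 0.172, adjusted p = 0.00122 in edgeR's quasi-likelihood test). Without replicate 1 of 48 h the log2 fold change was 0.76. E2f3 makes a long and a short protein from separate start sites, and counts per gene do not separate them.

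The canonical repressors rose by small amounts. E2f4 (ENSMUSG00000014859.9; chromosome 8, 105297663 to 105305370), the main repressor of resting cells, stood at 26.3, 26.1 and 24.2 CPM at 0 h and at 34.9, 39.3 and 36.9 CPM at 48 h. The increase was small beside those of E2f1 and E2f2 but larger than the spread of the libraries, at 1.45-fold (log2 fold change 0.54, standard error 0.1, adjusted p = 0.00176 in edgeR's quasi-likelihood test).

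E2f5 (ENSMUSG00000027552.14; chromosome 3, 14578641 to 14606309), the closest relative of E2f4, stood at 4.32, 4.32 and 4.46 CPM at 0 h and at 6.77, 7.38 and 6.20 CPM at 48 h, a log2 fold change of 0.64 (SE 0.15, with an edgeR adjusted p of 0.00688). A gene on the other strand, 1810022K09Rik, covers 1.46% of its exon bases.

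E2f6 (ENSMUSG00000057469.8; chromosome 12, 16810963 to 16839742), which represses through Polycomb proteins and does not bind pocket proteins, stood at 10.9, 10.9 and 12.0 CPM at 0 h and at 14.4, 14.3 and 16.3 CPM at 48 h. The time points did not overlap, at a log2 fold change of 0.41 (SE 0.121, with an edgeR adjusted p of 0.0202). This call was lost with upper-quartile factors (adjusted p = 0.0508 in edgeR), without replicate 1 of 0 h (adjusted p = 0.0671 in edgeR) and without replicate 3 of 48 h (adjusted p = 0.0733 in edgeR), and the log2 fold change was then 0.33 to 0.38.

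The atypical repressors started from very different levels. E2f7 (ENSMUSG00000020185.16; chromosome 10, 110745439 to 110787384) had 31, 23 and 16 counts at 0 h, above the floor of 3 counts, and 240, 341 and 359 counts at 48 h. In CPM these were 1.06, 0.741 and 0.482 at 0 h and 7.13, 9.54 and 10.3 at 48 h. It was the lowest of the 10 genes in each 0 h library, while E2f5 was lower in each 48 h library. Its mean rose 11.8-fold (log2 fold change 3.57, standard error 0.272, adjusted p = 4.43e-06 in edgeR's quasi-likelihood test).

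E2f8 (ENSMUSG00000046179.17; chromosome 7, 48866429 to 48881596) was expressed in undamaged liver, with 568, 681 and 527 counts, and had 2102, 2792 and 2456 counts at 48 h. In CPM these were 19.3, 21.9 and 15.9 at 0 h and 62.4, 78.1 and 70.1 at 48 h. The means rose 3.69-fold, from 19.1 ± 3.05 to 70.2 ± 7.84 CPM (SD, n = 3), a log2 fold change of 1.88 (SE 0.14, with an edgeR adjusted p of 3.7e-06). E2f8 therefore had a smaller fold than E2f7 and a much higher level at both time points.

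The level of E2f8 at 0 h carries a limit. A gene on the other strand, Gm2788 (chromosome 7, 48877958 to 48913040), runs through the start of E2f8 and covers 11.2% of its exon bases. The counting did not use strand, since all 460 annotated genes whose exons lie wholly under exons of other-strand genes had 0 counts in the 6 libraries. Reads in the shared exon bases were therefore left out, and unspliced RNA of Gm2788 over the other exons of E2f8 would have been counted as E2f8. Gm2788 stood at 23.4, 30.7 and 22.4 CPM at 0 h and fell to 2.58, 6.04 and 6.03 CPM at 48 h (log2 fold change -2.38, adjusted p = 8.29e-05 in edgeR's quasi-likelihood test). It moved opposite to E2f8, and its part in the E2f8 counts was not tested. The other-strand gene of E2f7, 1700020G17Rik, covers 0.955% of its exon bases and had 1 count in all 6 libraries together.

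The DP partners split. Tfdp1 (ENSMUSG00000038482.11; chromosome 8, 13338751 to 13378448) stood at 15.8, 14.3 and 15.4 CPM at 0 h and at 41.0, 40.7 and 43.8 CPM at 48 h, an increase of 2.76-fold with tight libraries at both times (log2 fold change 1.47, standard error 0.101, adjusted p = 2.05e-06 in edgeR's quasi-likelihood test). Tfdp2 (ENSMUSG00000032411.15; chromosome 9, 96196275 to 96323646) stood at 25.8, 20.3 and 24.3 CPM at 0 h and at 25.5, 21.3 and 23.4 CPM at 48 h. Its libraries overlapped fully, with a log2 fold change of 0.00 (SE 0.125, with an edgeR adjusted p of 0.987).

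**Figure D2:**
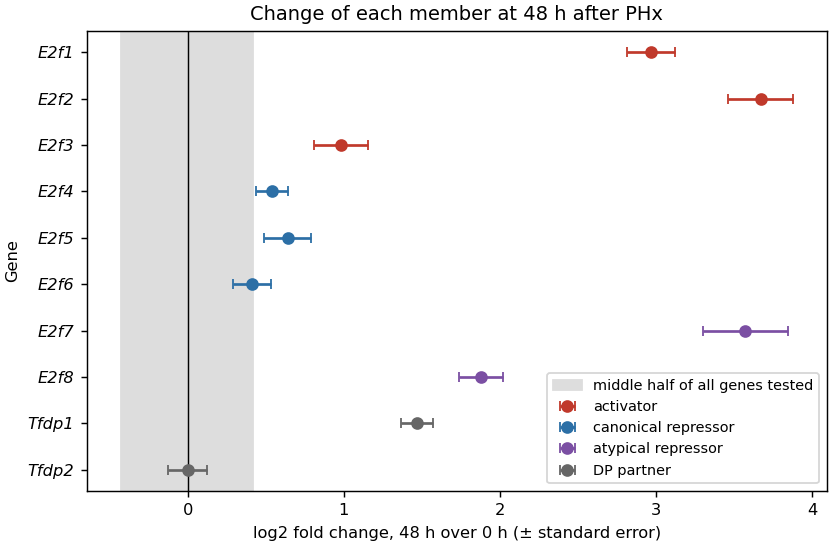
Points are the log2 fold changes (48 h over 0 h) of the 10 genes from edgeR, with bars of 1 standard error, coloured by role. The grey band, from -0.43 to 0.42, holds the middle 50% of all genes tested. E2f1, E2f2 and E2f7 lie near 3 or above, E2f4, E2f5 and E2f6 lie between 0.41 and 0.64, and Tfdp2 lies at 0.

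To compare levels between genes, CPM was divided by the exon length of each gene in kb. In undamaged liver E2f4 was the most abundant on this scale, at 10.4 ± 0.482 CPM per kb (SD, n = 3), followed by Tfdp1 at 4.13 ± 0.204, E2f8 at 3.50 ± 0.560, E2f5 at 2.45 ± 0.0443, E2f3 at 2.31 ± 0.226, E2f6 at 1.99 ± 0.116, Tfdp2 at 1.67 ± 0.205, E2f1 at 1.26 ± 0.246, E2f2 at 0.428 ± 0.0699 and E2f7 at 0.0843 ± 0.0319. The ranges of Tfdp1 and E2f8, and of E2f5 and E2f3, overlapped, and the other neighbours in this order did not. At 48 h the order was E2f4 at 15.1 ± 0.894 CPM per kb (SD, n = 3), E2f8 at 12.9 ± 1.44, Tfdp1 at 11.4 ± 0.461, E2f1 at 9.86 ± 0.513, E2f2 at 5.45 ± 1.28, E2f3 at 4.56 ± 1.13, E2f5 at 3.81 ± 0.333, E2f6 at 2.65 ± 0.203, Tfdp2 at 1.67 ± 0.152 and E2f7 at 0.996 ± 0.182. Among neighbours in this order, the ranges of E2f4 and E2f8, of E2f8 and Tfdp1, of E2f2 and E2f3, and of E2f3 and E2f5 overlapped. E2f4 lay above Tfdp1, and E2f2 above E2f5, in all 48 h libraries. E2f1 moved from rank 8 to rank 4, and E2f4 had the highest mean at both times. The order depends on the length used. With the longest transcript of each gene as its length, E2f5 went from rank 4 to 7, E2f3 from 5 to 6, E2f6 from 6 to 4 and Tfdp2 from 7 to 5 at 0 h. At 48 h E2f8 then ranked 1 and E2f4 ranked 2, E2f6 went from rank 8 to 6, E2f3 from 6 to 7 and E2f5 from 7 to 8, and the other ranks stayed as they were at both times.

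The 8 E2F genes together rose from 22.4 ± 0.482 to 55.3 ± 1.85 CPM per kb (SD, n = 3). The activators rose from 3.89, 3.68 and 4.44 to 22.1, 19.3 and 18.3 CPM per kb. The canonical repressors rose from 15.1, 15.0 and 14.5 to 20.6, 22.7 and 21.4 CPM per kb. The atypical repressors rose from 3.67, 4.11 and 2.97 to 12.3, 15.4 and 14.0 CPM per kb, nearly all of it E2f8. Each of these sums was higher in all 48 h libraries than in any 0 h library. They were given no test, since the genes were chosen with results of these data known.

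As shares of the per-length sum over the 8 E2F genes, the canonical repressors held 66.2% ± 0.410 (SD, n = 3) at 0 h and 39.0% ± 1.28 at 48 h. The activators held 17.2%, 16.2% and 20.3% at 0 h and 40.2%, 33.6% and 34.1% at 48 h. The atypical repressors held 16.2%, 18.1% and 13.6% at 0 h and 22.3%, 26.9% and 26.1% at 48 h. For each of the 3 shares, no 0 h library reached into the range of the 48 h libraries. E2f4 alone held 46.4% ± 1.22 at 0 h and 27.3% ± 1.17 at 48 h (SD, n = 3). These shares depend on how length is counted, and without division by length the canonical repressors held 51.7% at 0 h and 26.7% at 48 h.

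**Figure D3:**
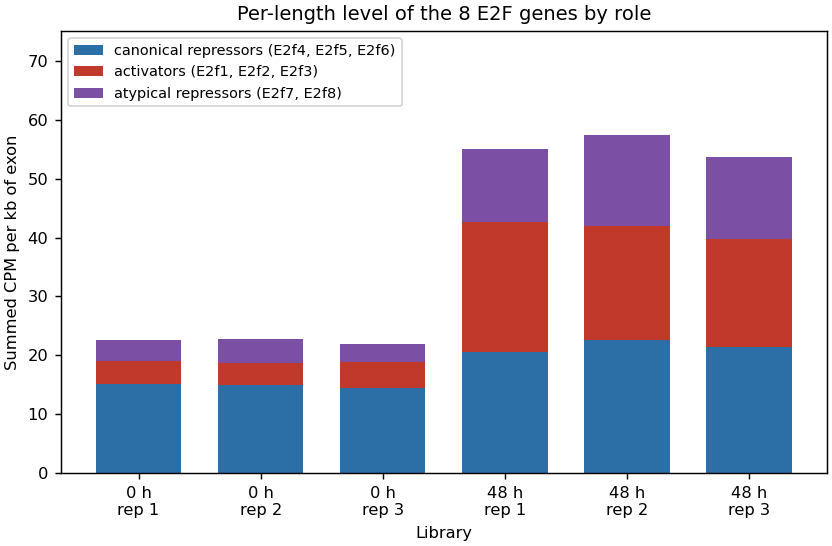
Bars are the summed CPM per kb of exon of the 8 E2F genes in each of the 6 libraries, stacked by role. The total is near 22 at 0 h and near 55 at 48 h, and the activator and atypical parts grow more than the canonical repressor part.

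The atypical repressors were also set against the activators. The ratio of their per-length sums was 0.943, 1.12 and 0.669 at 0 h and 0.555, 0.800 and 0.767 at 48 h, so the libraries of the time points overlapped. Ratios of single genes were apart between the time points. The per-length ratio of E2f8 to E2f7 was 30.3, 49.0 and 54.5 at 0 h and 14.5, 13.6 and 11.3 at 48 h, and that of E2f8 to E2f1 was 2.61, 4.11 and 2.02 at 0 h and 1.21, 1.49 and 1.23 at 48 h. Both ratios were lower in every 48 h library. They use the E2f8 level at 0 h, so the limit given above for Gm2788 holds for them. It holds as well for the sums and shares of the atypical repressors, and its size was not tested. The summed level of E2f1 to E2f6 over that of Tfdp1 and Tfdp2 was 3.09, 3.49 and 3.20 at 0 h and 3.28, 3.33 and 2.92 at 48 h, which overlapped, while the ratio of Tfdp1 to Tfdp2 went from 2.48 ± 0.192 to 6.86 ± 0.630 (SD, n = 3).

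The genes that hold E2F proteins in check were taken from lists written from general knowledge. Of the 3 pocket protein genes, Rbl1 (p107), a known E2F target, rose strongly, from 64, 63 and 85 counts to 839, 967 and 665 counts (log2 fold change 3.39, adjusted p = 2.97e-07 in edgeR's quasi-likelihood test). Rbl2 (p130), the pocket protein of resting cells, fell from 953, 953 and 1137 counts to 750, 781 and 655 counts (log2 fold change -0.63, adjusted p = 0.00113 in edgeR's quasi-likelihood test). Rb1, the retinoblastoma gene, had a log2 fold change of 0.33 (adjusted p = 0.0355 in edgeR's quasi-likelihood test), and this call was lost in 9 of the 14 alternative fits, where the log2 fold change was 0.25 to 0.35 and the adjusted p in edgeR or DESeq2 0.0519 to 0.114. Leaving out any library but replicate 2 of 0 h was enough to lose it. Genes on the other strand cover 21% of the exon bases of Rbl2 and 14.9% of those of Rb1. The pocket proteins thus moved in different directions, and the per-gene values stand in place of a value for the group.

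The MuvB core joins E2f4 and p130 in the DREAM complex of resting cells and joins B-Myb later in the cycle. Of its 5 core genes and Mybl2, 5 rose and none fell. Lin9 and Lin54 rose most, by log2 fold changes of 2.44 and 1.75 (adjusted p = 1.21e-06 for each in edgeR's quasi-likelihood test). Lin37 and Lin52 had log2 fold changes of 0.69 and 0.55 (adjusted p = 0.00283 and 0.0203 in edgeR's quasi-likelihood test), and Rbbp4, a histone-binding subunit shared with other complexes, had one of -0.05 (adjusted p = 0.734 in the same edgeR test). Mybl2, which encodes B-Myb, was counted little at both times, with 10, 15 and 19 counts at 0 h and 21, 38 and 37 at 48 h. Its log2 fold change was 0.96 (adjusted p = 0.044 in edgeR's quasi-likelihood test), and the call was lost in 8 of 13 alternative fits, at adjusted p of 0.0546 to 0.139 in edgeR, limma-voom or DESeq2. These included the fits without any of the 3 libraries of 0 h and without replicate 2 or 3 of 48 h. Lin52 lost its call without replicate 1 of 0 h, replicate 1 of 48 h or replicate 2 of 48 h, at adjusted p of 0.0543 to 0.089 in edgeR. Without replicate 1 of 0 h, or without replicate 2 of 48 h, 3 rather than 5 genes of this list were higher.

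Cyclins and kinases that phosphorylate pocket proteins rose in part. Of 6, 4 rose and none fell. Ccnd1, cyclin D1, had a log2 fold change of 3.41 (adjusted p = 4.11e-08 in edgeR's quasi-likelihood test), from 512, 637 and 700 counts to 6861, 8025 and 7053 counts. Cdk2, the partner of cyclin E, had one of 1.21, Cdk4 0.75 and Ccnd3 0.67 (adjusted p = 3.15e-05, 0.000724 and 0.00184 in the same edgeR test). Cdk6 and Ccnd2 did not pass the threshold, with log2 fold changes of 0.26 and -0.24. Other-strand genes overlie 23.4% of Ccnd1 exon sequence and 19.7% of Cdk4 exon sequence.

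Inhibitors of these kinases rose as well. Of the 7 inhibitor genes, 4 had enough counts to be tested, and all 4 rose. Cdkn2c (p18), an inhibitor of Cdk4 and Cdk6, rose by a log2 fold change of 3.91, Cdkn1a (p21) by 3.43, Cdkn2d (p19) by 2.44 and Cdkn1b (p27) by 0.68 (adjusted p = 8.26e-07, 1.19e-07, 7.51e-05 and 0.00115 in edgeR's quasi-likelihood test). Cdkn1a went from 241, 193 and 270 counts to 2399, 3406 and 2700 counts. Cdkn1c, Cdkn2a and Cdkn2b were not tested and had at most 17, 1 and 7 counts in any library.

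Among genes whose products mark E2F proteins for degradation, Skp2 rose by a log2 fold change of 1.98 and Ccnf (cyclin F) by 0.83 (adjusted p = 1.5e-06 and 0.00219 in edgeR's quasi-likelihood test). Fzr1, an activator of the anaphase-promoting complex, had a log2 fold change of -0.01 (adjusted p = 0.939 in the same edgeR test).

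Of 10 genes for the Polycomb complex that E2f6 joins, 7 rose, 1 fell and 2 did not pass the threshold, and the changes were small, with a median log2 fold change of 0.44. L3mbtl2, Cbx3 and Rnf2, which encode a chromatin reader, a heterochromatin protein and a ubiquitin ligase, had log2 fold changes of 0.94, 0.88 and 0.68 (adjusted p = 0.000154, 0.000287 and 0.0032 in edgeR's quasi-likelihood test). Yaf2 and Pcgf6 had values of 0.50 and 0.47, and Mga and Max, which form the DNA-binding dimer of the complex, had 0.40 and 0.37. The calls of Pcgf6, Mga and Max were lost in 6, 6 and 5 of 14 alternative fits, at adjusted p of 0.0507 to 0.132 in edgeR, and each library was among those whose omission ended at least 1 of these calls, apart from replicate 2 of 0 h. Ring1, a paralog of Rnf2, fell by 0.65 on the log2 scale (adjusted p = 0.00237 in edgeR's quasi-likelihood test). Rybp and Wdr5 had log2 fold changes of 0.27 and 0.26 (adjusted p = 0.141 and 0.0726 in the same edgeR test). The count of 7 was 4 with upper-quartile factors, without replicate 1 of 0 h, and without replicate 3 of 48 h.

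Genes known as E2F targets at the G1 to S transition rose with few exceptions. Of 30, all tested, 29 rose and 1 fell, with a median log2 fold change of 3.37. Uhrf1, a reader of hemimethylated DNA, rose from 13, 17 and 28 counts to 4017, 3534 and 3082 counts, a log2 fold change of 7.36. Cdc6, which loads the replicative helicase, rose by 6.52, Mcm5, a subunit of that helicase, by 5.40, and Ccne1, cyclin E1, by 5.36 on the log2 scale (the adjusted p of these 4 genes was at most 5.4e-08 in edgeR's quasi-likelihood test). Ccne1 went from 13, 26 and 15 counts to 820, 833 and 842 counts. Cdc6 had 7, 8 and 11 counts at 0 h and 996, 875 and 812 counts at 48 h. It and Orc1 reached the filter of 10 counts in 3 libraries through the 48 h libraries alone, so they could enter the test only by being high there. Tk1, thymidine kinase, had the smallest increase, at a log2 fold change of 0.87 (adjusted p = 0.00447 in edgeR's quasi-likelihood test).

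Mcm10, a replication initiation factor, was the gene that fell. It had 3188, 2039 and 2253 counts at 0 h and 1317, 1416 and 2230 counts at 48 h, so that it was the most highly counted of the 30 genes in undamaged liver. In CPM it stood at 109, 65.7 and 67.9 at 0 h and at 39.1, 39.6 and 63.7 at 48 h, and the highest 48 h library nearly reached the lowest 0 h library. Its log2 fold change was -0.77 (adjusted p = 0.0222 in edgeR's quasi-likelihood test). The call was lost without replicate 1 of 0 h, without replicate 1 of 48 h, without replicate 2 of 48 h and with library size only, at log2 fold changes of -0.50, -0.65, -0.65 and -0.56. Of the 30 genes, 25 had a promoter window, and for 12 of these a window held one of the 4 E2F words, beside 2.26% of all windows. The count of 12 is per gene, over any of its windows, while the 2.26% is per window, so the units differ. The genes were listed as E2F targets, so the count is a description of the list.

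The 12 genes of G2 and M phase that follow in the cycle all rose, with a median log2 fold change of 5.66. Aurkb, Top2a, Plk1 and Bub1, which encode mitotic kinases and a topoisomerase, had the largest values, 6.31, 6.19, 6.16 and 6.07, and Birc5 (survivin) and Aurka the smallest, 4.89 and 3.57. The adjusted p of these 6 genes was at most 1.15e-06 in edgeR's quasi-likelihood test. Aurkb, Bub1, Ccnb1 and Ccnb2 reached the filter through the 48 h libraries alone. These 4 of the 12 could enter the test only by being high there, and they are part of the median. At 0 h, Aurkb had 8, 14 and 5 counts and Bub1 had 4, 5 and 5, so their folds rest on few counts there. Bub1 was not tested when any 48 h library was left out, and 11 genes then rose.

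E2F1 is also known to switch on apoptosis genes, and these did not move as a block. Of 9, 6 were tested, of which 4 rose and 1 fell. Apaf1, the core of the apoptosome, had a log2 fold change of 2.02, and Casp8, which encodes an initiator caspase, had 0.67 (adjusted p = 2.56e-06 and 0.00584 in edgeR's quasi-likelihood test). Bcl2l11 (Bim) had a log2 fold change of 0.60 (adjusted p = 0.0124 in the same edgeR test, and 0.0627 without replicate 2 of 48 h). Bbc3 (Puma) fell from 755, 335 and 838 counts to 253, 271 and 193 counts, a log2 fold change of -1.58 (adjusted p = 0.0016 in edgeR's quasi-likelihood test), and the 0 h libraries spread widely. Trp73, Pmaip1 and Hrk were not tested, with at most 3, 20 and 10 counts in any library.

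**Figure D4:**
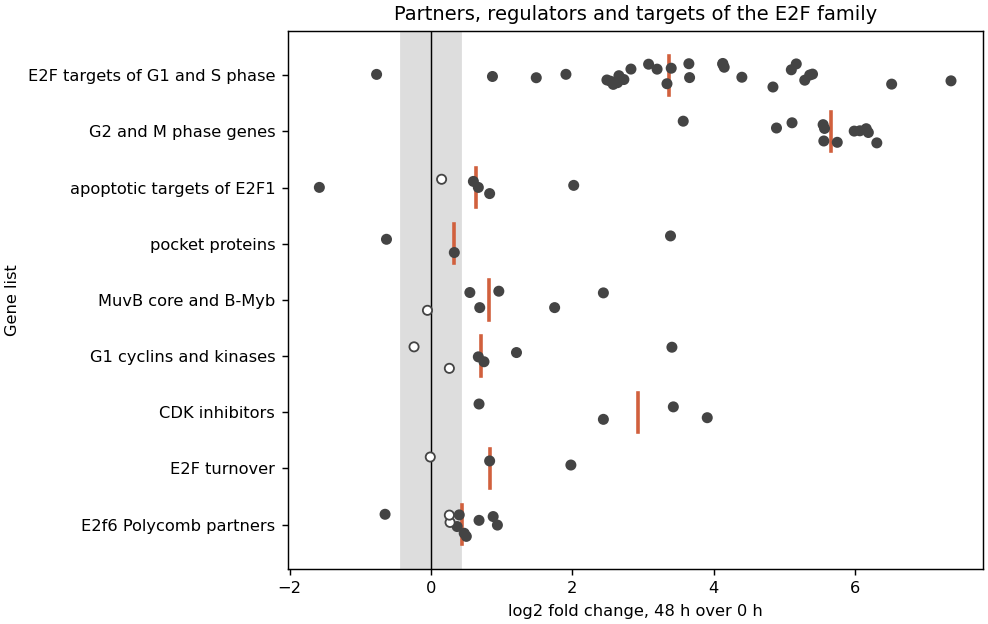
Each circle is the log2 fold change (48 h over 0 h) of a tested gene in 9 lists of partners, regulators and targets of the E2F family, filled where the adjusted p in edgeR was under 0.05. Orange lines are list medians, and the grey band holds the middle 50% of all genes tested. The target list of G1 and S phase has a median of 3.37 and the G2 and M phase list one of 5.66, while the E2f6 Polycomb partners have one of 0.44.

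The genes whose profiles over the 6 libraries lay closest to those of E2f1, E2f7 and E2f8 were found by the Euclidean distance between log2 CPM values centred on each gene's own mean, over the 13320 genes whose mean reached 1 CPM. Nearest to E2f1 were Xrcc2, a recombination gene, at a distance of 0.231, Selenoh at 0.321 and Wdhd1, a replication factor, at 0.346. Nearest to E2f7 were Mxd3 at 0.513, Aspn at 0.638 and Nrm at 0.643. Nearest to E2f8 were Tcf7 at 0.293, Pdlim7 at 0.321 and the gene Gm14780 at 0.356. Such distances are a description over 6 libraries that fall into 2 time points, and many genes with a similar fold lie near.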

How the data were processed

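Primary hepatocytes of 6 mice were profiled by bulk RNA-Seq, and 3 libraries per time point were grouped by the sample labels. The authors deposited raw read counts per gene without normalization. Their processing notes name FastQC 0.11.5, Trim Galore 0.6.4, STAR 2.6, HTSeq 0.12.4, DESeq2 and the build mm10, and the counting mode is not given in the sources used here. The identifiers are those of GENCODE M21, which gave names, coordinates and exon lengths on GRCm38. Reads on no gene made up 24.3% to 32.7% of the reads listed and reads shared by overlapping genes 4.27% to 5.29%, and both were left out of totals and tests. A gene entered the fit if 3 or more libraries held 10 or more of its counts, and these genes went into a quasi-likelihood fit of edgeR 4.0.16, run in R 4.3.3 (TMM factors, glmQLFit and glmQLFTest, time as the only term, adjusted p under 0.05), which was first tested on simulated data. Standard errors are the log2 fold change divided by the square root of F.

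Every 2 libraries of a time point differed by more than counting noise (mean chi-square per gene at least 25.8), so all 6 counted as samples. Floors cover counting error only, as reads carry no molecular identifiers. The members and lists were chosen with earlier results of these data known. All members are named, as is each gene of lists of up to 10 (apart from some values that are not reported here), and of longer lists the 4 largest and 2 smallest absolute changes and any gene that fell. The 3 nearest profiles were taken for E2f1, E2f7 and E2f8, with 0.1 CPM added before logs. Protein sequences were not analysed here. Alternatives were DESeq2 1.42.0, limma-voom 3.58.1, other normalizations and filters, the replicate block, leaving out each library, and other lengths.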

Additional observations from a re-analysis of the deposited data

How the results depend on the processing

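All 10 members kept their side of the threshold in the 14 alternative fits, apart from E2f6 in the 3 fits named above, and none of the 9 called members changed sign. Library size only shifted the median log2 fold change of all genes by 0.20, lowered the genes called lower at 48 h from 3288 to 2110, and moved the share of calls that were higher from 52.5% to 71.6%, while 9 members were still higher. The called member nearest to the threshold, E2f6, had a log2 fold change of 0.61 on that scale. The G1 and S phase targets that fell numbered 0 with library size only and 0 to 1 over the 6 fits that each left out a library. The pocket protein genes that rose numbered 1 with DESeq2, upper-quartile factors, a filter of at least 1 count in 1 library and the replicate block, and 1 to 2 with a library left out. Leaving out a library gave 3 to 4 higher genes in the MuvB list, against 5 with all libraries, and 4 to 7 in the E2f6 partner list, which had 4 with upper-quartile factors. The cause of these shifts was not tested.

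With the longest transcript as length, the activators held 15.2% at 0 h and 31.2% at 48 h, the atypical repressors 18.5% and 29.6%, and the ratio of atypical repressors to activators was 1.24 and 0.959. Without division by length, the activators held 23.4% at 0 h, the canonical repressors 51.7% and 26.7%, the atypical repressors 24.8% and 35.9%, and the ratio was 0.978 at 48 h. Same-numbered libraries come from different mice, and their deviations correlated at -0.138 to 0.0335. A fit with the replicate block called 3237 genes higher and 2884 lower, among them 9 members, all higher.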
